A study of Homo sapiens with 4 samples.

Results

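The prostaglandin gene set comprised 10 genes that make, move, break down or sense prostaglandin E2: PLA2G4A, PTGS1, PTGS2, PTGES, PTGES2, PTGES3, SLCO2A1, HPGD, PTGER2 and PTGER4. They were chosen by symbol, for their place in the pathway and with earlier results of these data known. In all, 58825 genes were counted in 4 libraries of LoVo, a human colon adenocarcinoma line. Of the 4 libraries, 2 came from MET+ cells, which keep the MET receptor and are marked in the labels as GFP controls, and 2 from MET-KO cells, in which MET was disrupted with CRISPR/Cas9. All cells grew in DMEM with 10% serum, and the labels name no drug or ligand treatment. LoVo is a particular setting for MET, since its receptor stays uncleaved and is phosphorylated without its ligand HGF. The MET-KO cells were grown from picked single clones selected by western blot, and whether both MET-KO libraries derive from 1 clone is not given in the sources used here, so properties of a clone and loss of MET cannot be told apart.

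Prostaglandin E2 is a short-lived lipid signal. The phospholipase PLA2G4A frees arachidonate from membranes, the cyclooxygenases PTGS1 and PTGS2 turn it into prostaglandin H2, and the synthases PTGES, PTGES2 and PTGES3 turn that into prostaglandin E2. The carrier SLCO2A1 takes prostaglandin E2 into cells, where HPGD oxidises it to a form with little activity, while outside the cell the receptors EP2 and EP4 (PTGER2 and PTGER4) respond to it by raising cAMP. In the colon, PTGS2 is well known as the inducible enzyme that is often raised in tumours, and HPGD as an enzyme of the healthy mucosa that is often lost there.

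Transcripts were counted with QuantSeq, a 3′ assay that reads about 1 fragment near the end of each polyadenylated transcript, so a count does not grow with transcript length. Levels of different genes are set side by side on this basis. Other differences between genes in how well their reads are captured and assigned were not measured. Library totals were 8429142 and 10286552 counts in MET+ and 10137583 and 10228991 in MET-KO. Levels are given as CPM, counts scaled to a common library total after TMM normalisation, in the order MET+ replicate 1, MET+ replicate 2, MET-KO replicate 1, MET-KO replicate 2. A total of 3 counts, the number that a count of 0 still allows, corresponds to 0.292 to 0.356 CPM per library. A gene is said to rise or fall where edgeR's quasi-likelihood test gave a Benjamini-Hochberg adjusted p under 0.05 over all 13801 genes tested. Each group held 2 libraries, and the p-values measure only the spread between these libraries. The spread of each gene was estimated in part from that of all genes. An exact permutation test of 2 against 2 cannot go below 0.333, which is the p it gave for PTGS2.

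The 2 groups stood far apart as a whole, and this bears on every gene below. Of the genes tested, 7467 differed between the groups, which is 54.1%, with 27.2% higher and 26.9% lower in MET-KO. In 75.6% of the tested genes the libraries of the groups did not overlap. The median absolute log2 fold change was 0.48. Across genes, the replicates correlated with a Pearson's r of 0.989 (MET+) and 0.991 (MET-KO) on log2 CPM, and libraries of different groups with 0.853 to 0.857. There were 26 genes with at least 100 counts in both MET+ libraries and 0 in both MET-KO libraries, and 48 genes the other way round. Moreover, 8 protein-coding genes of the Y chromosome had at least 10 counts in both MET-KO libraries, and 0 had a count in either MET+ library. MET itself, the target, had 2794 and 3272 counts in MET+ and 861 and 965 in MET-KO, with a log2 fold change of -1.96 (SE 0.09, adjusted p = 1.49e-18). A 3′ tag lies away from the edited site and so does not check the edit. Of 11 colon epithelial markers, 10 were tested and 9 called (2 higher, 7 lower). EPCAM, CDH1, CDX2 and the keratins KRT8, KRT18 and KRT19 were present in all 4 libraries and CDX1 was at 0 in all 4. Of these, EPCAM (log2 fold change -1.11), CDH1 (-0.88), KRT18 (-0.30) and KRT19 (-0.29) fell, CDX2 rose (1.04) and KRT8 was not called. LGALS4 went from 89 and 107 counts to 1 and 1, and VIL1 from 43 and 58 to 3 and 3. CEACAM5 went from 392 and 487 counts to 0 and 0, and KRT20 from 0 and 0 counts to 27 and 28. Summed markers of fibroblasts (8 genes) were at 1.64 to 4.33 CPM, those of immune cells (7 genes) at 6.16 and 9.96 CPM in MET+ and 0.981 and 1.1 CPM in MET-KO, led by LYZ, and those of endothelium (5 genes) at 0 to 0.924 CPM. PTPRC, CD3E, DCN, COL1A2 and CDH5 were at 0 in all 4 libraries.

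The sequences just upstream of the starts of PTGS2, PTGES and PLA2G4A are shown because these 3 genes had the largest rises of the set. They were taken from RefSeq (GRCh38.p14), read 5′ to 3′ on the strand of each gene, and bases that lie inside an annotated exon were left out. Capitals mark matches to any of 7 motifs searched on both strands. PTGS2 is shown from chr1:186680428-186680673 (minus strand, 246 bases), PTGES from chr9:129753048-129753292 (minus strand, 245 bases) and PLA2G4A from chr1:186828699-186828948 (plus strand, 250 bases).
PTGS2: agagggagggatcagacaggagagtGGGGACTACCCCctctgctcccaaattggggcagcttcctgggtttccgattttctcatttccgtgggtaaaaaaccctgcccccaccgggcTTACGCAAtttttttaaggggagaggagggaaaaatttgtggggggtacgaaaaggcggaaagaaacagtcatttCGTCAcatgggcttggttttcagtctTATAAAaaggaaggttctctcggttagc
PTGES: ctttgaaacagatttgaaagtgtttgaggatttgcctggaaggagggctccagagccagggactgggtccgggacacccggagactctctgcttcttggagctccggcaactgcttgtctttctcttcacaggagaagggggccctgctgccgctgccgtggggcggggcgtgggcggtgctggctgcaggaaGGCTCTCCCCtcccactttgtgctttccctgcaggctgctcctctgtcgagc
PLA2G4A: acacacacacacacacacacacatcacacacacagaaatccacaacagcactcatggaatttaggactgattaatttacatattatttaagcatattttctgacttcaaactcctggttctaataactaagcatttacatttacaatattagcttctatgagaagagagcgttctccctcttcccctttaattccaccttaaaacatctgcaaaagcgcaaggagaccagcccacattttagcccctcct

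The motifs were the TATA box (TATAAA), held by 10.7% of all 35116 RefSeq windows of 250 bases upstream of a start, the core of the cAMP response element (TGACG), held by 21.2%, the AP-1 site (TGANTCA), held by 6.57%, the C/EBP site (TTNNGNAA), held by 33.2%, the E-box (CACGTG), held by 6.34%, the TEAD site (GGAATG), held by 11.9%, and an NF-kB pattern of GGG, any 5 bases and CC, held by 54.4%. The PTGS2 window held a TATA box 32 to 27 bases before the start. It further held the cAMP response element core on the opposite strand 58 to 54 bases before the start, a C/EBP site that reads on both strands 133 to 126 bases before it, and 4 overlapping matches of the NF-kB pattern between 225 and 214 bases before it. The PTGES window held an NF-kB match at 57 to 48 bases before the start and no other of the 7 motifs. In the PLA2G4A window none of these letters was found. No motif of the 7 was shared by all 3 of these windows. Windows were given for 9 of the 10 genes (13 windows), all but SLCO2A1, and none of the 13 held the AP-1 or the TEAD letters. A match is a stretch of letters and does not show that a factor binds there.

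Of the 10 genes, 9 passed the filter on low counts and 8 of these were called, 5 higher in MET-KO (PTGS2, PTGES, PLA2G4A, SLCO2A1 and PTGES2) and 3 lower (HPGD, PTGS1 and PTGES3). PTGER4 was tested and not called, and PTGER2 was too low to be tested. With 54.1% of all tested genes called, the count says little by itself, and the sizes of the changes are the more informative values. PTGS2 ranked 286th, PTGES 347th and PLA2G4A 356th from the top of the 13801 log2 fold changes, and HPGD ranked 296th from the bottom. The ranking includes genes without a count in a whole group. Their log2 fold changes are set by the small count that edgeR adds, so these ranks are only rough. PLA2G4A entered the test through its MET-KO libraries and PTGER4 through its MET+ libraries.

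**Figure D1:**
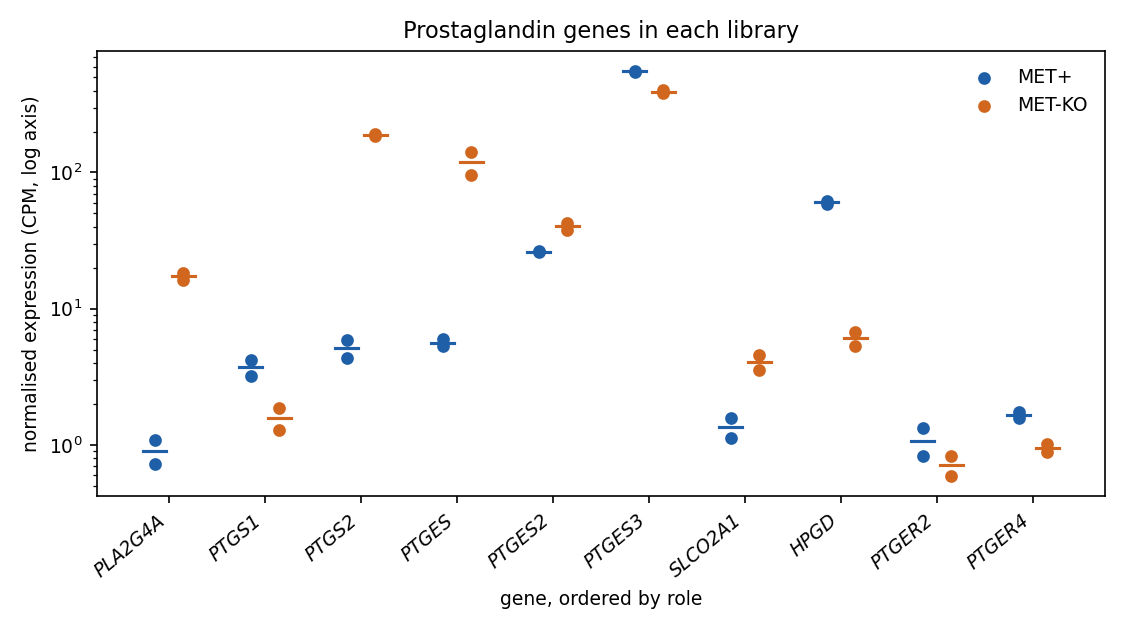
Level of each of the 10 prostaglandin genes in each of the 4 libraries, as CPM on a log axis, with a point per library. PTGS2, PTGES and PLA2G4A lie far higher and HPGD far lower in both MET-KO libraries, whereas PTGER2 overlaps between the groups.

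The release of arachidonate is the opening step of the pathway. PLA2G4A (ENSG00000116711, chr1:186828953-186988981, plus strand, GRCh38 as for all positions here), the cytosolic phospholipase that prefers arachidonate-bearing phospholipids, had 9, 7, 167 and 197 counts, or 1.09, 0.719, 16.4 and 18.1 CPM. Both MET-KO libraries lay far above both MET+ libraries. The mean rose from 0.903 ± 0.261 to 17.3 ± 1.25 CPM (SD, n = 2), a log2 fold change of 4.26 (SE 0.31, 95% interval 3.63 to 4.89) or 19.2-fold, with an edgeR adjusted p of 8.12e-14. In MET+ the gene had the lowest mean of the 10, though its libraries overlapped those of PTGER2. It lay only a little above the floor, so the precision of the fold rests on 16 counts. In bulk RNA of this kind, a change in the number of cells that express a gene and a change in its RNA per cell cannot be told apart.

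The cyclooxygenases moved in opposite directions. PTGS2 (ENSG00000073756, chr1:186671791-186680427, minus strand), the inducible enzyme, had 49, 42, 1965 and 2026 counts, or 5.92, 4.31, 193 and 187 CPM. The MET-KO libraries differed from each other by little and lay far above the MET+ libraries. The mean rose from 5.12 ± 1.14 to 189.6 ± 4.32 CPM (SD, n = 2), a log2 fold change of 5.22 (SE 0.14, 95% interval 4.93 to 5.51) or 37.4-fold (edgeR adjusted p = 1.1e-25), the largest of the set. PTGS1 (ENSG00000095303, chr9:122370530-122395703, plus strand), the constitutive enzyme, had 35, 31, 19 and 14 counts, or 4.23, 3.18, 1.86 and 1.29 CPM. All 4 libraries were low, and the MET+ pair lay above the MET-KO pair. Its mean fell from 3.71 ± 0.741 to 1.58 ± 0.406 CPM (SD, n = 2), a log2 fold change of -1.22 (SE 0.42, 95% interval -2.08 to -0.368, edgeR adjusted p = 0.0143). This call was lost without MET+ replicate 1 (log2 fold change -1.01, adjusted p = 0.092), without MET-KO replicate 2 (-0.98, adjusted p = 0.163) and with the DESeq2 Wald test (-1.23, adjusted p = 0.125). In the other alternatives its adjusted p was 0.00607 to 0.0392. AL162424.1, annotated inside an intron of PTGS1 on the same strand, had 1, 4, 0 and 3 counts.

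Since both enzymes were read in the same library, their shares do not depend on scaling between libraries. PTGS2 made up 58.3% (exact binomial 95% interval 47.1 to 69%) and 57.5% (45.4 to 69%) of the cyclooxygenase reads in the MET+ libraries. In the MET-KO libraries it made up 99% (98.5 to 99.4%) and 99.3% (98.9 to 99.6%). The MET+ cells thus gave reads of both transcripts at like levels, and nearly all cyclooxygenase reads of the MET-KO cells were PTGS2. These intervals cover counting error only.

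The 3 synthases of prostaglandin E2 each behaved differently. PTGES (ENSG00000148344, chr9:129738331-129753047, minus strand), the inducible microsomal synthase that is known to work with PTGS2, had 44, 58, 1444 and 1048 counts, or 5.32, 5.95, 142 and 96.5 CPM. The MET-KO libraries were spread more widely than for PTGS2, but both lay far above MET+. The mean rose from 5.64 ± 0.45 to 119 ± 31.9 CPM (SD, n = 2), a log2 fold change of 4.39 (SE 0.17, 95% interval 4.04 to 4.74) or 21-fold (edgeR adjusted p = 3.52e-21). PTGES2 (ENSG00000148334, chr9:128120693-128128462, minus strand), a second membrane-associated synthase, had 25.9, 26.5, 42.3 and 38 CPM. Its rise, 0.62 on the log2 scale (SE 0.13, 95% interval 0.353 to 0.879, adjusted p = 0.000139), was larger than the spread between replicates but far smaller than that of PTGES. PTGES3 (ENSG00000110958, chr12:56663341-56688408, minus strand), the cytosolic synthase that is better known as the HSP90 co-chaperone p23, was the most abundant gene of the set, with 556, 548, 400.3 and 382 CPM. It fell by 0.50 on the log2 scale (SE 0.09, adjusted p = 1.65e-05). However, the median log2 fold change on chromosome 12 (762 tested genes) was -0.32, and within 5 Mb of PTGES3 it was -0.53, so that PTGES3 lay 0.032 above its own neighbourhood. The part of this regional shift in the fall of PTGES3 was not tested.

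Within libraries, PTGES made up 0.905% (exact binomial 95% interval 0.658 to 1.21%) and 1.03% (0.779 to 1.32%) of the reads of the 3 synthases in MET+. In MET-KO the share was 24.2% (23.2 to 25.3%) and 18.7% (17.7 to 19.7%). PTGES3 therefore still gave most synthase reads in both groups. Set against PTGES2 alone, there were 0.206 and 0.225 PTGES reads per PTGES2 read in MET+, and 3.35 and 2.54 in MET-KO.

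Uptake and breakdown were represented by SLCO2A1 and HPGD. SLCO2A1 (ENSG00000174640, chr3:133928145-134052184, minus strand), the prostaglandin carrier, had 13, 11, 36 and 50 counts, or 1.57, 1.13, 3.53 and 4.6 CPM. It was low throughout, with the MET-KO pair above the MET+ pair. Its mean rose from 1.35 ± 0.312 to 4.07 ± 0.76 CPM (SD, n = 2), a log2 fold change of 1.6 (SE 0.42, 95% interval 0.742 to 2.46, edgeR adjusted p = 0.00172). Without MET-KO replicate 2 the call was lost (log2 fold change 1.39, adjusted p = 0.0648), and over the other alternatives the adjusted p was 0.000301 to 0.0393. HPGD (ENSG00000164120, chr4:174490177-174523154, minus strand), the dehydrogenase that starts the breakdown of prostaglandin E2, had 510, 575, 69 and 58 counts, or 61.6, 59, 6.76 and 5.34 CPM. Here the MET+ libraries were the high ones. The mean fell from 60.3 ± 1.85 to 6.05 ± 1.01 CPM (SD, n = 2), a log2 fold change of -3.32 (SE 0.15, 95% interval -3.63 to -3, edgeR adjusted p = 6.55e-19), or 9.97-fold lower. HPGD was the only gene of the set that fell by more than a log2 value of 2.

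The order of the inducible cyclooxygenase and the degrading enzyme relative to each other was thus reversed. In MET+ there were 0.0961 and 0.073 PTGS2 reads per HPGD read, and in MET-KO 28.5 and 34.9. As a share of the reads of both genes, PTGS2 made up 8.77% (exact binomial 95% interval 6.56 to 11.4%) and 6.81% (4.95 to 9.09%) in MET+, against 96.6% (95.7 to 97.4%) and 97.2% (96.4 to 97.9%) in MET-KO. These are ratios of RNA, and neither enzyme activity nor prostaglandin E2 was measured in these libraries.

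**Figure D2:**
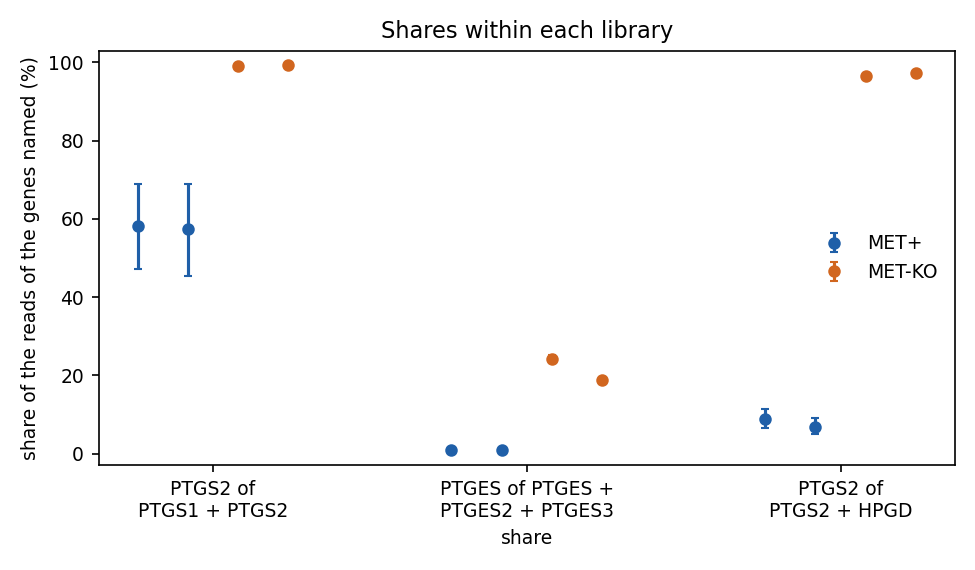
Share of reads within each library, in percent, for PTGS2 among cyclooxygenase reads, PTGES among the 3 synthases and PTGS2 among PTGS2 plus HPGD, with exact binomial 95% intervals that cover counting error only. The 2 MET-KO libraries lie above the 2 MET+ libraries in all 3 shares, most of all for PTGS2 against HPGD (6.81% and 8.77% in MET+, 96.6% and 97.2% in MET-KO).

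The receptors that couple to cAMP were at the edge of detection. PTGER4 (ENSG00000171522, chr5:40679498-40693735, plus strand), which encodes EP4, had 13, 17, 9 and 11 counts, or 1.57, 1.74, 0.882 and 1.01 CPM. The groups did not overlap, but the log2 fold change of -0.80 (SE 0.52, 95% interval -1.86 to 0.256) had an edgeR adjusted p of 0.197 and was not called. The interval reaches from a marked fall to a slight rise, and at this depth a difference was not detected. The median log2 fold change on chromosome 5 was -0.43, and within 5 Mb of PTGER4 it was -0.48. TTC33, which overlaps PTGER4 on the opposite strand, had 61, 70, 104 and 117 counts and a log2 fold change of 0.53 (adjusted p = 0.0448). Because the strand setting of the counting is not given in the sources used here, reads of the overlapping genes may not be fully separated. PTGER2 (ENSG00000125384, chr14:52314305-52328606, plus strand), which encodes EP2, had 11, 8, 6 and 9 counts, or 1.33, 0.821, 0.588 and 0.829 CPM. Its groups overlapped and it fell under the filter on low counts. With no filter its log2 fold change was -0.58 with an adjusted p of 0.621. PTGER4 made up 54.2%, 68%, 60% and 55% of the reads of both receptors, and the groups overlapped.

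**Figure D3:**
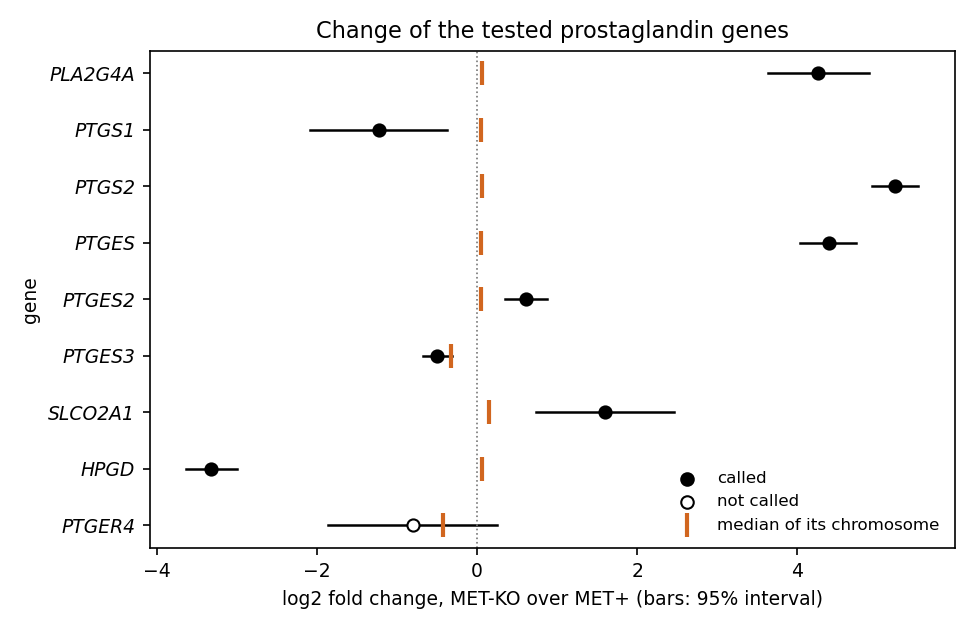
Log2 fold change of MET-KO over MET+ for the 9 prostaglandin genes that were tested, with 95% intervals from the edgeR fit. PTGS2 (5.22), PTGES (4.39) and PLA2G4A (4.26) form the upper end and HPGD (-3.32) the lower end, and the interval of PTGER4 crosses 0.

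The order of levels differed between the groups. In MET+, PTGES3 (552 CPM), HPGD (60.3 CPM) and PTGES2 (26.2 CPM) stood clear of the rest and of each other. PTGES (5.64 CPM) and PTGS2 (5.12 CPM) overlapped between libraries, and PTGS1 (3.71 CPM) lay just below them. At the low end, PTGER4 (1.66 CPM), SLCO2A1 (1.35 CPM), PTGER2 (1.08 CPM) and PLA2G4A (0.903 CPM) lay below PTGS1 in both libraries. Among these low genes, neighbours in the order did not differ beyond the spread of their libraries. In MET-KO the order was PTGES3 (391 CPM), PTGS2 (189.6 CPM), PTGES (119 CPM), PTGES2 (40.2 CPM), PLA2G4A (17.3 CPM), HPGD (6.05 CPM), SLCO2A1 (4.07 CPM), PTGS1 (1.58 CPM), PTGER4 (0.948 CPM) and PTGER2 (0.709 CPM). Here the libraries of neighbouring genes did not overlap at any step, though PTGER4 and PTGER2 rested on 20 and 15 counts. PTGS2 moved from the fifth to the second place and HPGD from the second to the sixth.

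PTGS2 and PLA2G4A are neighbours on chromosome 1, with 148.5 kb between their annotations, and PACERR, a long non-coding RNA gene, is the only annotated gene that lies wholly between them. PACERR had 2, 0, 4 and 8 counts. Within 5 Mb of PTGS2, 25 genes were tested, these 2 included, of which 11 were higher, 5 lower and 9 not called, where 27.2% of all tested genes were higher and 26.9% lower. All the others lie on the same side, away from PLA2G4A. NMNAT2, an NAD-synthesising enzyme known from neurons, had 0, 0, 54 and 58 counts, passed the filter through MET-KO and lay at least 15.9-fold higher in MET-KO against a floor of 3 counts per library. The other tested genes of the stretch had smaller values, and the median of chromosome 1 was 0.06. Relative to the genes within 5 Mb, PTGS2 stood 5.03 and PLA2G4A 4.06 higher on the log2 scale. On the same measure PTGES stood 4.33 higher on chromosome 9 and HPGD 3.42 lower on chromosome 4 (log2 difference -3.42), so these changes were about as large within their neighbourhoods as over all genes.

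**Figure D4:**
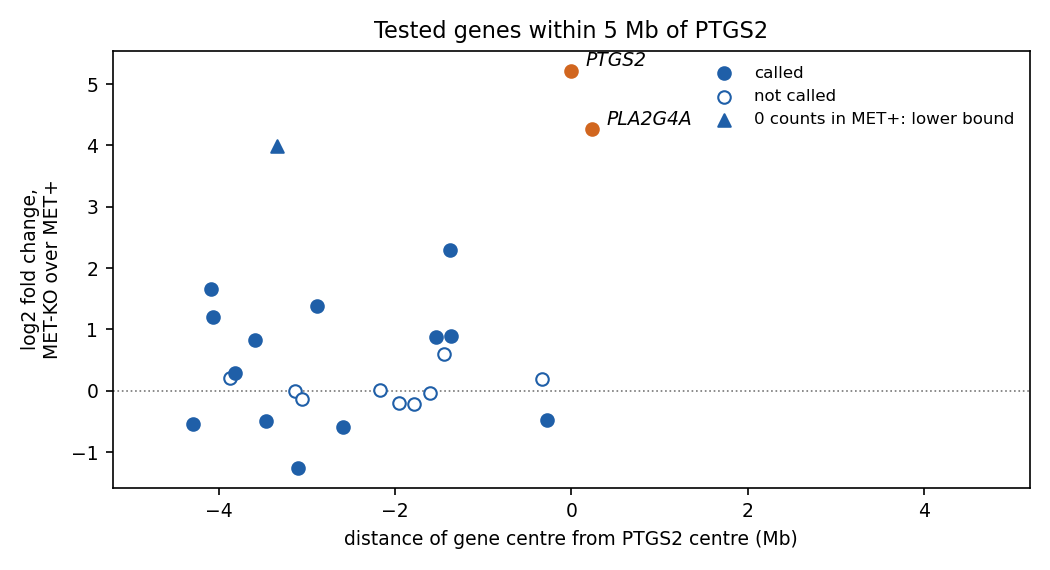
Log2 fold change of the 25 tested genes within 5 Mb of PTGS2 on chromosome 1 against the distance of their centres from that of PTGS2 in Mb. NMNAT2 (triangle) is drawn at its lower bound of 3.99 and so cannot be ranked against PTGS2 (5.22) and PLA2G4A (4.26), and the remaining genes have smaller values than these 3.

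A list of 23 other prostanoid genes covered the remaining synthases, reductases, the exporter ABCC4 and receptors. FAM213B was not matched in the files, 6 of the 22 others had no count in any library (HPGDS, PTGIS, PTGDR, PTGDR2, PTGFR and PTGIR), and 11 were tested. Of these, 10 were called, 5 higher and 5 lower, or 90.9% against 54.1% over all genes tested, but 4 of the 10 passed the filter on low counts only through the group in which they are high (TBXA2R and PTGES3L through MET-KO, AKR1C1 and AKR1C2 through MET+), so the count supports nothing about the list. The median log2 fold change was -0.04 against 0.00729 over all genes. ABCC4, which exports prostaglandin E2 from cells, had 147, 139, 776 and 752 counts and rose from 16 ± 2.47 to 72.7 ± 4.84 CPM (SD, n = 2), a log2 fold change of 2.19 (SE 0.13, edgeR adjusted p = 6.64e-16). The thromboxane receptor TBXA2R went from 0 and 1 counts to 27 and 34, a ratio of 52.2 with an exact counting interval of 9.02 to 2090 (adjusted p = 1.25e-06). PTGES3L, a relative of PTGES3, went from 3 and 0 counts to 17 and 14, a ratio of 8.84 with an interval of 2.76 to 45.2 (adjusted p = 0.00179). TBXAS1, the thromboxane synthase, rose by 1.26 on the log2 scale (13, 18, 37 and 50 counts, adjusted p = 0.0074). It lies opposite HIPK2, which also had more counts in MET-KO (555, 695, 1052 and 1195), and on chromosome 7, whose median was 0.50. CBR3 was the fifth gene higher (log2 fold change 0.47).

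The lower genes of this list were led by aldo-keto reductases. AKR1C3, which reduces prostaglandins D2 and H2, had 355, 317, 11 and 15 counts and fell from 37.7 ± 7.33 to 1.23 ± 0.214 CPM (SD, n = 2), a log2 fold change of -4.92 (SE 0.24, edgeR adjusted p = 2.89e-18). AKR1C1 had 97 and 113 counts in MET+ and 0 in both MET-KO libraries, at least 40.9-fold lower against a floor of 3 counts per library. AKR1C2 had 93 and 101 counts in MET+ and 0 in both MET-KO libraries, at least 37.9-fold lower. The sequences of AKR1C1 and AKR1C2 are nearly identical, so the division of reads between them is uncertain, and together they had 190 and 214 counts against 0 and 0. CBR1, a carbonyl reductase that acts on prostaglandin E2, fell by 0.44 on the log2 scale (adjusted p = 0.000481) and lies opposite SETD4 (105, 160, 115 and 128 counts). The fifth, PTGR2, a reductase of oxidised prostaglandins, fell by 0.63 (log2 fold change -0.63, adjusted p = 0.003). It lies on chromosome 14, whose median was -0.52, and the part of this shift in its fall was not tested. PTGER3 (0, 4, 15 and 8 counts) and PTGER1 (2, 1, 0 and 0 counts), the other prostaglandin E2 receptors, were too low to be tested. ZADH2, another reductase, was tested and not called, and AKR1B1 and PTGR1 were too low to be tested.

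Genes that supply arachidonate or use it otherwise formed a list of 28, of which 18 were tested. The test called 12 (66.7% against 54.1% over all genes), of which 5 rose and 7 fell, so the count says little about these genes, and the median log2 fold change of the 18 was 0.03. The long-chain acyl-CoA synthetases, which activate arachidonate and other fatty acids for return to membranes, fell in the case of all 3 listed. ACSL3 fell from 310 ± 8.8 to 123.9 ± 2.03 CPM (a log2 value of -1.32, adjusted p = 3.1e-14). ACSL4, which prefers arachidonate, fell from 86.8 ± 7.96 to 37.6 ± 2.2 CPM (-1.21, adjusted p = 3.8e-11), and ACSL1 from 51.7 ± 5.56 to 18.9 ± 3.59 CPM (-1.44, adjusted p = 9.47e-11). LPCAT3, which puts arachidonate back into phospholipids, fell from 50.3 ± 3.47 to 23.1 ± 1.59 CPM (-1.12, adjusted p = 3.35e-09). LPCAT3 lies opposite EMG1, which had 795, 921, 566 and 524 counts.

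Among the higher genes of that list, PLA2G4C, a phospholipase related to PLA2G4A, went from 1 and 5 to 85 and 70 counts (log2 fold change 4.42, SE 0.49, adjusted p = 2.34e-09), and it passed the filter only through MET-KO. FADS2, the desaturase at the start of arachidonate synthesis, rose from 5.16 ± 0.975 to 18.4 ± 3.04 CPM (SD, n = 2, log2 value 1.82, adjusted p = 1.14e-08), while FADS1 had a log2 fold change of -0.20 and was not called. FADS2 overlaps FADS1 on the opposite strand and FEN1 on its own strand, and both of these had between 1337 and 1725 counts in every library. EPHX2, a hydrolase of arachidonate epoxides, had 8, 30, 113 and 131 counts (2.46, adjusted p = 5.44e-08) and likewise passed through MET-KO, and PLA2G12A rose by 0.76 on the log2 scale (adjusted p = 0.000104). ALOX12, ALOX15, PLA2G4B and PLA2G4F were at 0 in all 4 libraries. ALOX5, which opens the leukotriene branch, had 20, 14, 26 and 14 counts and was not called.

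Downstream of the receptors, 27 genes of cAMP signalling were listed. The test covered 24 and called 12 of them, which is 50% against 54.1% over all genes. Of these, 8 rose and 4 fell, and the median log2 fold change of the 24 was 0.19. PDE4D, a phosphodiesterase that breaks down cAMP, had 7.01, 8.11, 50.2 and 46.3 CPM, a log2 fold change of 2.67 (SE 0.16, adjusted p = 3.92e-16), on a chromosome whose median was -0.43. The regulatory subunits of protein kinase A PRKAR2A (39.2 to 73.5 CPM, log2 fold change 0.91, adjusted p = 3.02e-08) and PRKAR1B (22.4 to 45.9 CPM, 1.02, adjusted p = 1.55e-07) rose. PRKAR1B lies on chromosome 7 opposite DNAAF5, which had 497, 520, 1035 and 878 counts. ADCY9, an adenylyl cyclase, rose from 5.76 to 15.9 CPM (1.46, adjusted p = 4.94e-07).

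The lower genes of the cAMP list were CRTC3, a coactivator of CREB (44.4 to 19.7 CPM, log2 fold change -1.17, adjusted p = 3.34e-09), ATF1, a relative of CREB (-0.72, adjusted p = 8.67e-06), PDE4A (-0.54, adjusted p = 0.000746) and the adenylyl cyclase ADCY6 (-0.83, adjusted p = 0.0105). CRTC3 lies on chromosome 15 (median -0.43), and ATF1 and ADCY6 on chromosome 12 (median -0.32). PDE4A lies opposite CDC37, which had 2957, 3786, 3317 and 3064 counts. GNAS, which encodes the stimulatory G protein used by EP2 and EP4, had a log2 fold change of -0.10 (95% interval -0.281 to 0.0827) and was not called. NR4A1, a well-known early target of cAMP, was at 13.9, 14.7, 14.1 and 13.5 CPM, with overlapping groups and a log2 fold change of -0.05 (95% interval -0.418 to 0.32). NR4A2 was not called either (log2 fold change -1.03, adjusted p = 0.0651).

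Of 23 genes known to regulate PTGS2, as transcription factors or as proteins that bind its mRNA, all were tested and 18 called (78.3% against 54.1% over all genes). The rises numbered 5 and the falls 13, where 27.2% of all genes rose and 26.9% fell, and the median log2 fold change was -0.30. CELF2, an RNA-binding protein known to hold back translation of PTGS2 mRNA, had 400 and 416 counts in MET+ and 0 in both MET-KO libraries, at least 160-fold lower (adjusted p = 4.62e-21), and passed the filter only through MET+. FOSL1, an AP-1 subunit, fell from 135.1 ± 9.59 to 33.1 ± 6.19 CPM (a log2 value of -2.02, adjusted p = 1.73e-16). CEBPD, a factor that binds C/EBP sites, fell from 45.5 ± 2.02 to 7.23 ± 0.589 CPM (-2.65, adjusted p = 5.65e-16), and RBM3, known to stabilise PTGS2 mRNA, fell from 525 to 289 CPM (-0.86, adjusted p = 7.04e-10).

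In the opposite direction, NFKBIA, the NF-kB inhibitor that is itself an NF-kB target, rose from 107 ± 5.9 to 169 ± 5.06 CPM (SD, n = 2, log2 value 0.66, adjusted p = 4.49e-07) on chromosome 14, whose median was -0.52. USF1, an E-box factor, rose from 7.9 to 18.1 CPM (1.19, adjusted p = 3.53e-06). ELAVL1, which stabilises mRNAs such as that of PTGS2, rose from 74.5 to 107 CPM (0.52, adjusted p = 5.69e-05), and HNRNPD, another protein of AU-rich mRNA ends, rose by 0.33 (adjusted p = 0.00244). NFKB1 (log2 fold change 0.02) and FOS (-0.17) were not called, with overlapping groups, and FOS had only 12, 29, 24 and 18 counts. Other NF-kB and AP-1 subunits of the list were called lower. RELA fell by 0.30 on the log2 scale (edgeR adjusted p = 0.0336), though its groups overlapped. JUN fell by 0.65 (adjusted p = 4.1e-05).

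**Figure D5:**
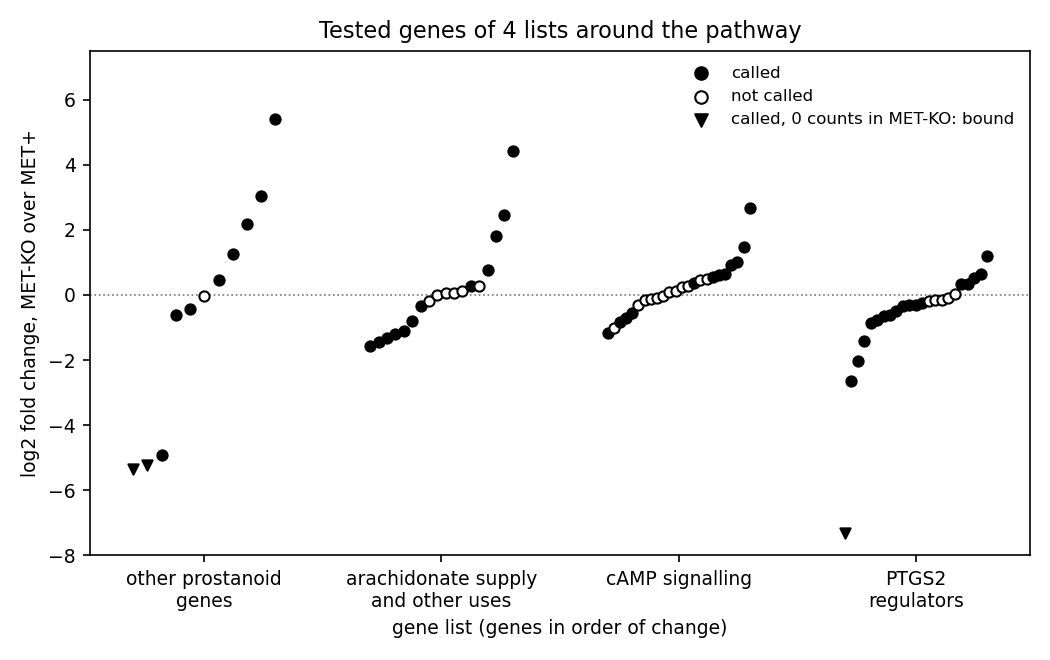
Log2 fold change of MET-KO over MET+ for each tested gene of 4 lists around the pathway, ordered by size within each list. Most values lie between -2 and 2, genes without a count in MET-KO (AKR1C1, AKR1C2 and CELF2) are drawn at their bounds, and the top points are the low-count genes TBXA2R (other prostanoid genes) and PLA2G4C (arachidonate supply).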

How the data were processed

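RNA was extracted from LoVo cells with QIAzol, made into QuantSeq 3′ mRNA libraries and sequenced by a service provider. Per the submitters' processing notes, cutadapt 1.16, STAR 2.5.4a, featureCounts 1.6.2 and DESeq2 1.18.1 were among the tools, with GRCh38. The annotation release, strand setting and treatment of overlapping genes are not given in the sources used here. The authors deposited unnormalised read counts per gene, one table a library, with 58825 gene rows and 99 spike-in rows that were all at 0 and were left out. Of the gene IDs, 58552 were found in GENCODE release 29, which gave symbols and positions.

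Groups came from the sample labels (2 MET+, 2 MET-KO). Counts were filtered with filterByExpr, scaled by TMM (factors 0.949 to 1.06) and tested with edgeR 4.0.16 (quasi-likelihood, group only, R 4.3.3), with Benjamini-Hochberg adjustment over 13801 genes and a threshold of 0.05. SEs were derived from the F statistic, and CPM used the scaled library size. The script was tested on simulated data. The counts differed between replicates by more than sampling noise (chi-square per degree of freedom 5.45 and 4.86), so no library was a copy. Same-numbered libraries shared little deviation across genes (correlation -0.0349). With only 2 pairs, this cannot show whether the replicate numbers pair the samples. Alternatives were DESeq2 size factors, library totals, DESeq2 1.42.0, other filters, thinning, a replicate block and leaving out each library.

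The 10 genes and the lists were chosen with earlier results of these data known. Named are all 10, up to 4 called genes per direction of each list by adjusted p, overlapping genes, and the 5 genes most like PTGS2. Further genes are named to complete a count or because a result turned on them, after their values were seen. Promoter windows came from RefSeq. No protein sequences were used here.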

Additional observations from a re-analysis of the deposited data

How the results depend on the processing

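The direction of PTGS2 held in every alternative run, with a log2 fold change of 4.99 to 5.46 when each library was left out in turn. Its edgeR adjusted p was 1.1e-25 in the main test and 6.97e-253 with no filter, at a log2 fold change of 5.22 in both. The size of this p thus depends strongly on the setting. Of the 10 genes, 6 to 8 were called when a library was left out, 7 with at least 10 counts in every library (7 tested) or the DESeq2 Wald test, and 6 when the log2 size also had to reach 1. PTGS1 and SLCO2A1 lost their calls as given above. PTGES3 fell in MET-KO, but relative to the median of the genes within 5 Mb (-0.53) it lay 0.032 higher. This difference is smaller than the SE of PTGES3 (0.09). Over all genes, 3355 were called when the size on the log2 scale also had to reach 1 (2001 higher, 1354 lower), 5433 by the DESeq2 Wald test (5292 shared with the edgeR calls) and 6289 to 7083 without a library. Library totals alone as scaling moved the median of all genes to 0.11 and turned the direction of none of the 9 tested. Of the other prostanoid genes, 6 were called by the DESeq2 Wald test and 6 with at least 10 counts in every library, where 7 were tested. A replicate block gave 7055 calls (7035 shared) with 8 of the 10 genes called and PTGS2 at 5.22, although whether the numbers pair the samples is not known. Depth limits PTGER2, PTGER4, PTGS1 and SLCO2A1 most, with at most 50 counts in any library.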

Other observations

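The genes whose pattern over the 4 libraries lay nearest to that of PTGS2, by Euclidean distance of log2 CPM after subtraction of each gene's mean, were SCRT1 (distance 0.219), XKR7 (0.311), CMTM3 (0.313), NUDT16P1 (0.321) and RAB26 (0.322). All 5 were close to absent in MET+ and at modest levels in MET-KO. SCRT1, a transcriptional repressor known from neurons, had 1, 0, 107 and 104 counts. XKR7 had 0, 0, 74 and 77 counts, CMTM3 0, 0, 76 and 79, NUDT16P1, a pseudogene, 0, 0, 75 and 82, and RAB26, a small GTPase of secretory granules, 0, 0, 78 and 74. With 0 or 1 count in MET+, the likeness rests on the prior count of the log2 scale, and it was measured over only 4 libraries. PTGS2 differed from these 5 genes in level, with 49 and 42 counts in MET+ and 1965 and 2026 in MET-KO.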
